A study of Mus musculus with 30 samples.

Results

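Antiviral effectors are the proteins that interferon-stimulated cells make to block viral replication, and 10 of their genes are described here: Mx1, Mx2, Bst2, Rsad2, Cmpk2, Slfn8, Slfn5, Slfn2, Trim30a and Trim30d. They were taken by gene symbol from the 51752 genes of the deposited count table, and all 10 were found and passed the filter on low counts in every comparison. The set was selected on earlier results of these data, in which interferon-induced genes were higher in animals given an antibody against interleukin-34 (IL-34). Values of that antibody comparison, and of any comparison that contains it, are therefore a description: no gene's p-value is printed, and counts past a threshold are given without reading anything from them.

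The 30 RNA-seq libraries came from 15 mice in 2 experiments aimed at IL-34, a ligand of the receptor Csf1r. The genotype experiment compared 3 knockout animals (labelled IL34 KO; animals 3, 6 and 24) with 4 heterozygous animals (IL34 Het; animals 1, 20, 21 and 23), so that its controls carry the mutant allele too. In the antibody experiment, all animals were wild type: 4 received a blocking antibody to IL-34 (anti-IL34; animals 2, 10, 11 and 24) and 4 a control antibody (anti-gp120; animals 1, 7, 8 and 15). After saline perfusion, 1 hemisphere of each animal was sequenced as whole forebrain, and microglia were pulled from the other with CD11b beads. Strain, age, the nature of the mutant allele and the antibody dose are not given in the labels. Males and females were 2 and 2 in the Het and anti-gp120 arms. KO animal 3 was the only male of its arm and anti-IL34 animal 11 the only female of its arm, so leaving out either also removes a sex.

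Type I interferon binds the receptor chains Ifnar1 and Ifnar2, and the signal leads to a transcription factor complex that contains Irf9 and binds the interferon-stimulated response element in the promoters of target genes. Mx proteins are dynamin-like GTPases that trap viral nucleocapsids. Bst2 (tetherin) holds budding virions at the cell surface. Rsad2 (viperin) converts CTP to a chain-terminating nucleotide, and Cmpk2, its divergent neighbour, is a mitochondrial nucleotide kinase. Schlafens act on tRNA and on the proliferation of immune cells, and Trim30a is a tripartite-motif protein known to restrain NF-κB signalling. In the brain, microglia are among the cells that respond to interferon.

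The core letters of this element can be seen in the promoters of most of these genes. Promoter windows of 300 bases, 250 before to 50 after the start site, were taken from RefSeq (GRCm38.p6) for 8 of the 10 genes; Mx1 and Mx2 were not matched. The core GAAANNGAAA was searched on both strands, with N for any base, and 6 of the 8 genes held it, against 3.44% of the 32851 windows of the same length. Each line below gives 60 bases around the match, read 5′ to 3′ on the gene's own strand, with the match in capitals; in Rsad2, Slfn8, Trim30a and Trim30d the core lies on the opposite strand.
Bst2: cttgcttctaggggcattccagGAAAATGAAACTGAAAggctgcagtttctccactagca
Rsad2: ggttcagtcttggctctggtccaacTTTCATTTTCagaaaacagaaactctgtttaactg
Slfn8: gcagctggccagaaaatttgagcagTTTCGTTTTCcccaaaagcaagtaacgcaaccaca
Slfn5: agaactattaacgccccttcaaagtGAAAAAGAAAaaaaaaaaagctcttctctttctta
Trim30a: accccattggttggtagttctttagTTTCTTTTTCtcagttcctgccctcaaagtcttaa
Trim30d: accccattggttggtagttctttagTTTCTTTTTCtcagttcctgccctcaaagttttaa

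These stretches lie at chr8:71537565-71537624 (Bst2), chr12:26456538-26456597 (Rsad2), chr11:83020824-83020883 (Slfn8), chr11:82951922-82951981 (Slfn5), chr7:104465195-104465254 (Trim30a) and chr7:104507856-104507915 (Trim30d), on the plus strand for Slfn5 and the minus strand for the others. Counting the start site as 0, the match began at -130 in Bst2, -120 in Rsad2, -48 in Slfn8, -155 in Slfn5, -36 in Trim30a and -41 in Trim30d. Bst2 holds 2 overlapping matches. Its stretch also overlaps the only match among the 8 genes to the gamma-activated site core TTCNNNGAA, which 8.3% of all windows hold. Trim30a and Trim30d differ at 1 of these 60 bases. No match was found in the windows of Cmpk2 and Slfn2, which says only that these letters are absent from those windows. The RefSeq start site of Slfn5 lies 753 bases from the start of the gene in the GENCODE annotation, so its window is not at the gene's annotated 5′ end there.

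Most of the genes sit in clusters (GENCODE M21, GRCm38). Mx1 (ENSMUSG00000000386, chr16:97447035-97462907, minus strand) and Mx2 (ENSMUSG00000023341, chr16:97535308-97560900, plus strand) share a region of chromosome 16. Rsad2 (ENSMUSG00000020641, chr12:26442746-26456452, minus strand) and Cmpk2 (ENSMUSG00000020638, chr12:26469204-26479837, plus strand) point away from each other. Slfn5 (ENSMUSG00000054404, chr11:82951349-82964840), Slfn8 (ENSMUSG00000035208, chr11:83002158-83020810) and Slfn2 (ENSMUSG00000072620, chr11:83065112-83070678) lie on chromosome 11. Trim30a (ENSMUSG00000030921, chr7:104409025-104465193) and Trim30d (ENSMUSG00000057596, chr7:104470014-104507849) lie side by side on chromosome 7. Bst2 (ENSMUSG00000046718, chr8:71534255-71537456) stands alone.

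Some reads of these genes can be misassigned. Of all 50-base windows of its transcripts, Slfn8 shared 14.58% with other genes (mostly the pseudogene Slfn10-ps), Trim30d 7.49%, Trim30a 5.98%, Mx2 4.38%, Slfn2 4.27%, Mx1 3.91% and Slfn5 3.37%, while Bst2, Rsad2 and Cmpk2 shared none. How far this shifts the values of the first 7 was not measured. The antisense genes Slfn5os and Gm20234 lie over Slfn5 and Slfn2. Exons overlap for Slfn5 and Slfn5os, but not for Slfn2 and Gm20234. Whether strand was used in counting is not given in the sources used here; if it was not, reads where Slfn5 and Slfn5os overlap cannot be told apart. The pseudogene Gm16464 lies within Trim30d on the same strand, without exon overlap, and the small nuclear RNA gene Gm25405 within Trim30a on the other strand. Intronic reads may have been counted (see the processing). If so, reads in the overlaps of Slfn2, Trim30a and Trim30d may be ambiguous too. Slfn5os had at most 4 counts in any library and Gm20234 at most 20.

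Sequencing depth ran from 15.1 to 75.2 M counts per library, and values are given as CPM, counts scaled to the same library total with TMM factors over all libraries. The lowest count of any of the 10 genes was 6, for Bst2 in the forebrain of KO animal 24. Il34 itself was 21.0 ± 2.53 CPM in Het forebrain (SD, n = 4) and 7.46 ± 0.88 in KO forebrain (n = 3), without overlap, and 30.5 to 39.4 CPM in the wild-type forebrains. In isolates it was 5.06 to 10.3 CPM in Het and 5.17 to 7.05 in KO, which overlap. Microglia markers were present in all isolates: the summed level of 9 homeostatic markers was 4131 to 18730 CPM there and 97.2 to 442 CPM in forebrain.

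In control animals, 9 of the 10 genes were higher in isolated microglia than in whole forebrain and 1 was lower, by edgeR's quasi-likelihood test in 8 animals with Benjamini-Hochberg adjustment over 18752 genes. Of all genes tested, 40.8% were called higher and 43.3% lower, so most genes were called, and the sizes are given. Slfn2 had the highest ratio, 5.44 ± 0.24 (log2, ± SE; edgeR adjusted p = 5.3e-12), followed by Slfn8 at 4.81 ± 0.21 and Trim30d at 4.33 ± 0.21. Bst2 (3.98 ± 0.24), Rsad2 (3.82 ± 0.24) and Mx1 (3.79 ± 0.31) followed within 1 SE of each other. Slfn5 (2.63 ± 0.20), Trim30a (2.35 ± 0.19) and Mx2 (2.17 ± 0.17) had lower ratios. Cmpk2 was the exception, lower in microglia by -1.03 ± 0.12 (edgeR adjusted p = 4.0e-07), with 22.1 to 26.9 CPM in the 8 control forebrains and 7.75 to 15.7 in their isolates. The fit had no term for the animal, so both libraries of an animal entered as independent. All 10 passed in every alternative run, the animal as a block among them. A forebrain value mixes all cell types, and fewer cells of a type and less RNA per cell cannot be told apart in it.

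**Figure D1:**
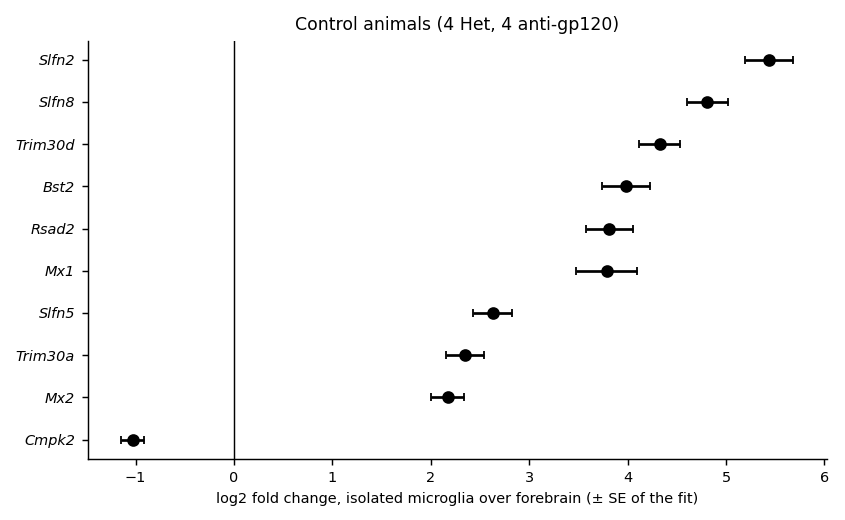
Log2 fold change of isolated microglia over whole forebrain for each gene in the 8 control animals, with bars for the standard error of the edgeR fit. Slfn2 stands at 5.44 and Cmpk2 alone lies below 0, at -1.03.

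The mean level of both Mx GTPase genes in isolates was lowest in the KO arm and highest in the anti-IL34 arm. In isolated microglia, Mx2 was 11.9, 18.3, 14.5 and 17.6 CPM in Het animals 1, 20, 21 and 23, and 9.64, 9.31 and 10.4 in KO animals 24, 3 and 6. The groups did not overlap, and Mx2 fell by 0.70 on the log2 scale (SE 0.15, edgeR adjusted p = 0.0463). It passed in 2 of 7 fits without 1 animal, where its edgeR adjusted p ran from 0.0178 to 0.219. Mx1 was 7.00, 19.2, 15.5 and 8.25 CPM in the same Het isolates and 2.08, 3.11 and 8.20 in the KO isolates. KO animal 6 lay within the Het range, and the difference of -1.56 ± 0.57 did not pass (edgeR adjusted p = 0.129). Without that animal the difference was -2.24, and it did not pass either. In forebrain neither passed, at 0.06 ± 0.28 for Mx1 and -0.23 ± 0.13 for Mx2 (edgeR adjusted p = 0.985 and 0.743).

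With antibody, the forebrain level of Mx1 was 1.85, 1.27, 1.24 and 1.13 CPM in anti-gp120 animals 1, 15, 7 and 8, and 2.96, 4.24, 9.14 and 6.62 in anti-IL34 animals 10, 11, 2 and 24. Mx2 was 2.51 to 4.06 CPM in the anti-gp120 forebrains and 6.23 to 13.4 in the anti-IL34 forebrains. Neither gene's groups overlapped, and the log2 differences were 1.95 ± 0.34 and 1.35 ± 0.26. In isolates, Mx1 was 33.3, 12.3, 9.01 and 11.3 CPM with anti-gp120 and 35.3, 66.0, 92.7 and 95.3 with anti-IL34, in the same animals and order. The groups were apart, but anti-gp120 animal 1 and anti-IL34 animal 10 lay next to each other. Log2 differences in isolates were 2.06 ± 0.46 for Mx1 and 1.28 ± 0.29 for Mx2, and 2.75 and 1.67 without anti-gp120 animal 1.

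The divergent pair Rsad2 and Cmpk2 had unlike values. Rsad2, the viperin gene, had the largest difference of the 10 genes with antibody in both tissues. In isolates Mx1 lay within 1 SE of it, and on leaving out 1 animal their highest values were 2.753 (Rsad2) and 2.754 (Mx1). The forebrain level of Rsad2 was 1.96, 1.10, 1.14 and 1.13 CPM in anti-gp120 animals 1, 15, 7 and 8, and 3.73, 4.98, 11.97 and 8.32 in anti-IL34 animals 10, 11, 2 and 24. In the isolates of these animals it was 33.2, 12.8, 11.0 and 14.3 against 47.0, 72.4, 140.0 and 96.9. The groups did not overlap in either tissue, at log2 differences of 2.31 ± 0.36 in forebrain and 2.21 ± 0.42 in isolates. In the genotype experiment Rsad2 was 7.66 to 16.3 CPM in Het isolates and 4.68 to 12.5 in KO isolates (-0.57 ± 0.39, edgeR adjusted p = 0.325). Its forebrain values were 0.715 to 0.850 CPM in Het and 0.719, 0.237 and 1.05 in KO animals 24, 3 and 6, where animal 3 rests on 8 counts.

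Cmpk2, the nucleotide kinase gene, lay in a narrow range in forebrain: 22.1 to 24.5 CPM in Het, 22.1 to 23.2 in KO, 22.3 to 26.9 with anti-gp120 and 27.7 to 31.3 with anti-IL34. Only the anti-IL34 group stood apart from its control, by 0.30 ± 0.09 (log2). In isolates its differences were larger: 13.9, 15.7, 13.9 and 9.56 CPM in anti-gp120 animals 1, 15, 7 and 8 and 32.9, 32.2, 64.6 and 59.4 in anti-IL34 animals 10, 11, 2 and 24, a log2 difference of 1.71 ± 0.27. It was also the only one of the 10 genes with a positive difference in KO isolates. Het isolates held 12.4, 11.3, 7.75 and 8.93 CPM (animals 1, 20, 21 and 23) and KO isolates 13.7, 12.8 and 20.5 (animals 24, 3 and 6). The groups did not overlap, but the difference of 0.61 ± 0.25 did not pass (edgeR adjusted p = 0.145).

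Bst2, the virion tether, was among the genes with a large antibody difference. In forebrain it was 1.70, 1.21, 1.17 and 1.00 CPM in anti-gp120 animals 1, 15, 7 and 8 and 3.99, 3.40, 7.34 and 5.75 in anti-IL34 animals 10, 11, 2 and 24, apart by 1.89 ± 0.24 (log2). In isolates anti-gp120 animal 1 held 34.2 CPM, the other 3 anti-gp120 animals 11.5 to 12.1, and the anti-IL34 animals 28.7 to 62.8. The groups overlapped through animal 1 alone, and the difference was 1.48 ± 0.40 with it and 2.11 without. In KO isolates Bst2 was 6.87, 7.64 and 11.3 CPM, all under the Het range of 11.5 to 15.5 (-0.69 ± 0.23, edgeR adjusted p = 0.113).

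**Figure D2:**
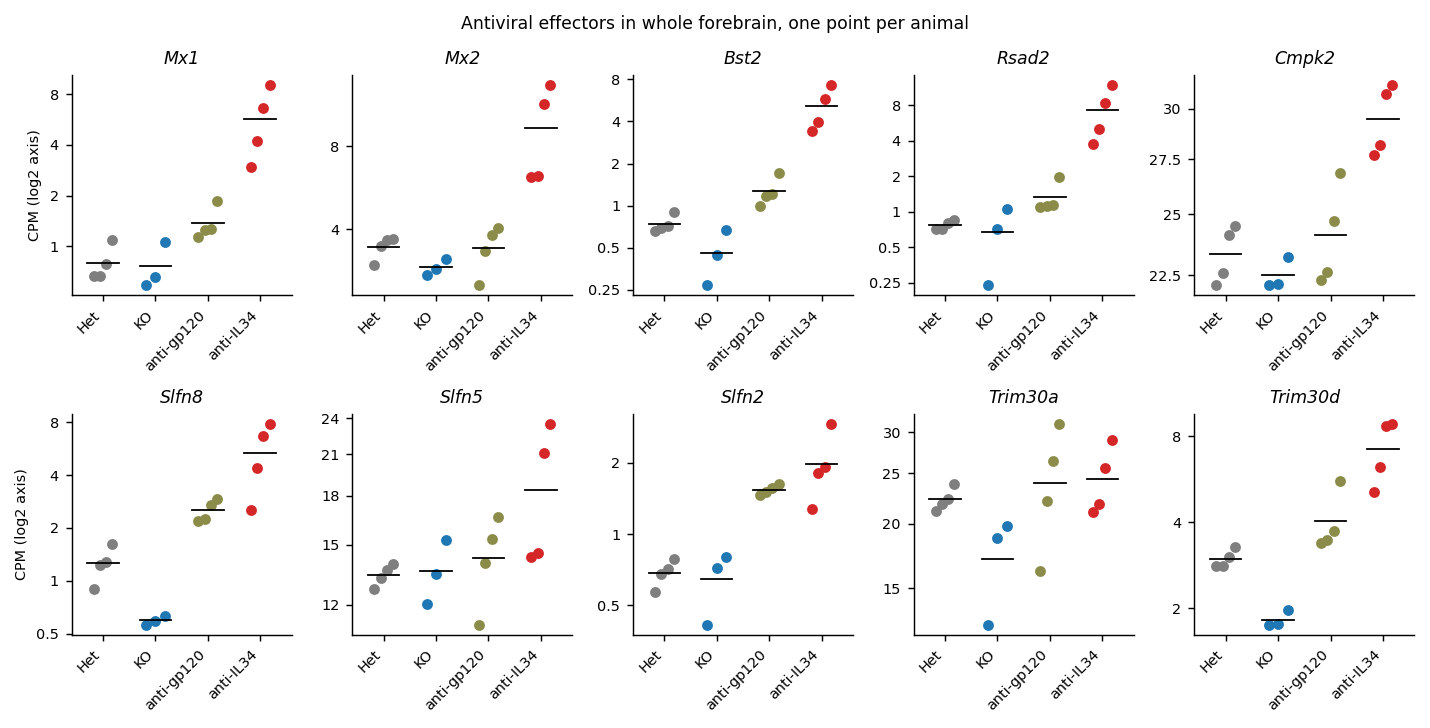
Level of each gene in whole forebrain (CPM, log2 axis) by arm, with 1 point per animal and a line at the group mean. The anti-IL34 animals lie above all anti-gp120 animals for Mx1, Mx2, Bst2, Rsad2 and Cmpk2, and the KO animals below all Het animals for Slfn8, Trim30a and Trim30d.

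Among the Schlafens, Slfn8 showed the clearest genotype difference. Its level in isolates was 35.6, 55.7, 49.3 and 34.3 CPM in Het animals 1, 20, 21 and 23, and 12.8, 16.2 and 22.8 in KO animals 24, 3 and 6. The ranges did not overlap and Slfn8 fell by 1.34 on the log2 scale (SE 0.27, edgeR adjusted p = 0.0417), 2.54-fold lower. It passed in 2 of 7 fits without 1 animal, where its edgeR adjusted p ran from 0.0235 to 0.289. In forebrain the values were 1.23, 0.895, 1.28 and 1.63 CPM in Het and 0.629, 0.593 and 0.563 in KO, from 14 to 31 counts per KO library. The forebrain groups did not overlap either, but the difference of -1.07 ± 0.26 did not pass (edgeR adjusted p = 0.135). With anti-IL34 Slfn8 was 2.52 to 7.82 CPM in forebrain against 2.19 to 2.93 with anti-gp120, and 58.1 to 150 against 43.1 to 91.4 in isolates, overlapping in both. Its log2 differences were 1.00 ± 0.31 and 0.97 ± 0.34.

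Neither Slfn5 nor Slfn2 passed between genotypes. Slfn5 was 48.3 to 111 CPM in Het and 52.4 to 76.3 in KO isolates, and Slfn2 16.6 to 42.1 and 23.2 to 26.1 (-0.30 ± 0.33 and -0.38 ± 0.31, edgeR adjusted p = 0.535 and 0.403). With anti-IL34, Slfn5 was 131, 241, 296 and 267 CPM in isolates of animals 10, 11, 2 and 24, against 148, 77.7, 69.9 and 90.0 in those of anti-gp120 animals 1, 15, 7 and 8. Anti-gp120 animal 1 lay above anti-IL34 animal 10, and the difference was 1.25 ± 0.32. Slfn2 had the smallest antibody difference in isolates, 0.46 ± 0.31, with anti-gp120 animal 1 at 97.0 CPM and the anti-IL34 animals at 53.2 to 106. In forebrain their antibody differences were 0.33 ± 0.18 and 0.37 ± 0.26.

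Every KO value of both Trim30 genes was under every Het value, in both tissues. Trim30d was 2.80, 3.28, 2.82 and 3.03 CPM in the forebrain of Het animals 1, 20, 21 and 23, and 1.75, 1.75 and 1.96 in that of KO animals 24, 3 and 6. It was the only one of the 10 genes that passed in forebrain, where it fell by 0.71 on the log2 scale (SE 0.14; edgeR adjusted p = 0.0397), 1.63-fold lower. It passed in 0 of the 7 fits without 1 animal, where its edgeR adjusted p ran from 0.0712 to 0.251. In the same forebrains edgeR called 5 of 6 oligodendrocyte markers lower in KO and DESeq2 6, with sums of 5277 to 6191 CPM in Het and 4209 to 4609 in KO, and homeostatic microglia markers were lower too. Their part in the Trim30d difference was not tested. In isolates Trim30d was 41.2, 76.6, 72.9 and 53.2 CPM in Het and 23.4, 20.2 and 29.6 in KO, and fell by 1.36 (SE 0.25, edgeR adjusted p = 0.0298). There it passed in 2 of the 7 fits without 1 animal, with edgeR adjusted p from 0.0136 to 0.2515. Its genotype ranges did not overlap in either tissue. Trim30a was 21.1 to 23.9 CPM in Het forebrain and 12.8 to 19.8 in KO forebrain, and 74.7 to 132 against 44.8 to 63.6 in isolates. Its groups were apart in both tissues without passing, at -0.34 ± 0.11 and -1.01 ± 0.24 (edgeR adjusted p = 0.384 and 0.0594).

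The antibody arms separated the pair less clearly in forebrain. Trim30a was 16.2 to 31.2 CPM with anti-gp120 and 21.0 to 29.0 with anti-IL34, a difference of 0.02 ± 0.18, the smallest of the 10 genes. Trim30d was 3.38 to 5.58 and 5.08 to 8.85 CPM, a difference of 0.76 ± 0.21, overlapping through anti-gp120 animal 1. In isolates the antibody differences were close to each other, at 0.92 ± 0.33 and 0.89 ± 0.35, and 1.37 and 1.34 without anti-gp120 animal 1.

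**Figure D3:**
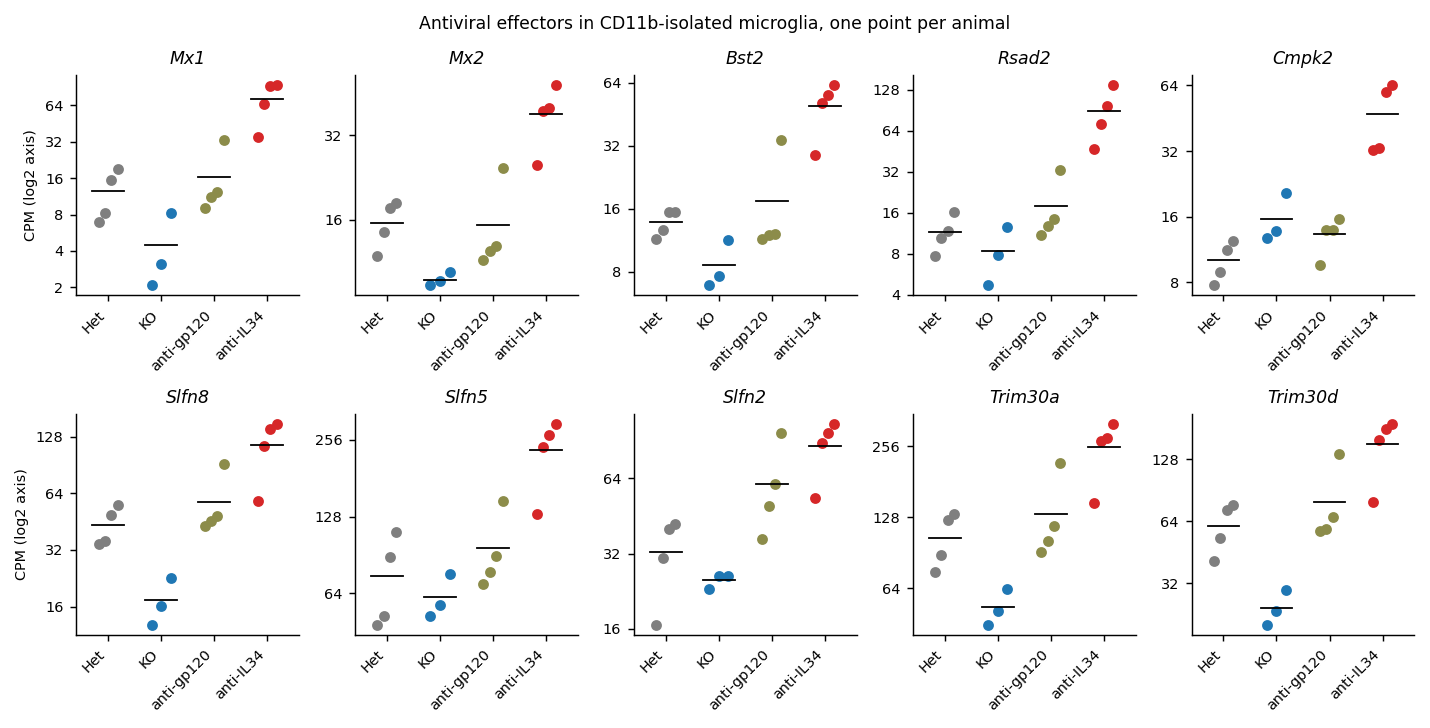
Level of each gene in CD11b-isolated microglia (CPM, log2 axis) by arm, with 1 point per animal and a line at the group mean. Anti-gp120 animal 1 stands above the other anti-gp120 animals for all genes but Cmpk2, and anti-IL34 animal 10 is the lowest anti-IL34 animal for all but Cmpk2.

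Counted over the 10 genes, most differences in KO isolates were negative. In KO isolates 3 genes were called lower (Mx2, Slfn8 and Trim30d) and none higher, against 5.22% of 18185 genes called lower. In the same isolates 9 of 9 homeostatic microglia markers were called lower, with sums of 10800 to 18730 CPM in Het and 4131 to 4473 in KO, and astrocyte markers summed to more in KO. Their part in these calls was not tested. Negative differences were seen for 9 of the 10, and 5 had KO values entirely under the Het values, against 20.0% of all genes. The median difference was -0.693 (log2), against 0.0185 over all genes tested. In forebrain 1 gene was called lower (0.615% of 19343 genes), 8 of 10 differences were negative and 3 did not overlap (6.24% of all genes), with a median of -0.243. Leaving out single animals moved the counts of calls. In isolates they went to 6 without Het animal 1, where 5756 of 18294 genes were called. Without Het animal 21 they went to 4, beside 3115 of 18073 genes. They were 0 without Het animals 20 or 23 or any KO animal, where no gene was called. In forebrain they went to 0 in every case but Het animal 20, where Slfn8 passed in place of Trim30d. Over all genes the forebrain fits without 1 animal called 55 to 117.

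In the antibody experiment all 10 differences were positive in both tissues, the direction on which the genes were chosen. That of Trim30a in forebrain ranged from -0.078 to 0.18 on leaving out 1 animal, and was negative in 4 of the 8 such fits: those lacking animals 7 or 8 of the control arm, and those lacking animals 2 or 24 of the other. In forebrain 4 were called higher (Mx1, Mx2, Bst2 and Rsad2), where 0.192% of 17143 genes were, and 5 did not overlap, where 0.776% did. In isolates 1 was called higher (Cmpk2), where 0.0228% of 17570 genes were, and 4 did not overlap (Mx1, Mx2, Rsad2 and Cmpk2), where 4.76% did. Median differences were 0.882 and 1.265. Nothing is read from these counts. Forebrain calls numbered 6 without anti-IL34 animal 10, 3 without anti-IL34 animal 2, 2 on leaving out anti-gp120 animal 1, anti-gp120 animal 8 or anti-IL34 animal 24, and 1 on leaving out anti-gp120 animal 7 or anti-IL34 animal 11. Over all genes the forebrain fits without 1 animal called 25 to 126. Isolate calls numbered 6 when anti-gp120 animal 15 was left out, beside 6905 of all 17071 genes. They numbered 1 when anti-IL34 animal 11 was, beside 514 of 17001, and 0 for each other animal, beside 0 to 6.

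**Figure D4:**
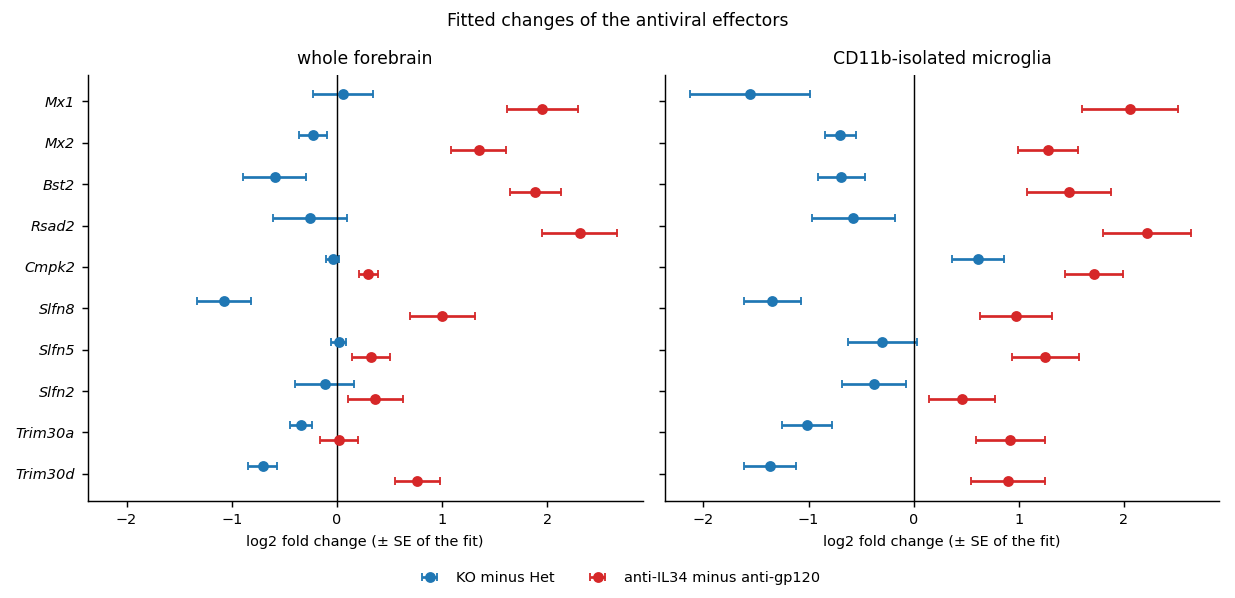
Log2 fold change of each gene with its standard error, in forebrain (left) and isolated microglia (right), for KO minus Het (blue) and anti-IL34 minus anti-gp120 (red). Antibody values are all above 0, and in isolates the KO values are below 0 for all genes but Cmpk2.

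The genotype difference less the antibody difference was negative for all 10 genes in both tissues, from -2.44 (Bst2) to -0.33 (Slfn5) in forebrain and from -3.50 (Mx1) to -0.82 (Slfn2) in isolates. None passed in edgeR, where 0.0101% of 19724 genes did in forebrain and 0.0% of 18732 in isolates. At an unadjusted p under 0.05 there were 7 and 9 of the 10, beside 605 and 740 of all genes tested, and DESeq2 called 4 and 7, beside 30 and 41 of all genes. Mx1 in isolates ranged from -4.37 without KO animal 6 to -3.09 without Het animal 20, and Rsad2 in forebrain from -3.11 without KO animal 6 to -1.83 without KO animal 3. This difference contains the antibody effect on which the genes were chosen, so it is a description only.

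The control arms also differed for some of these genes. In forebrain Slfn2 was 0.677, 0.788, 0.715 and 0.568 CPM in Het animals 1, 20, 21 and 23 and 1.63, 1.5, 1.46 and 1.57 in anti-gp120 animals 1, 15, 7 and 8, a log2 difference of -1.17 ± 0.18 (edgeR adjusted p = 0.0115). Slfn8 was lower in Het too, at -1.03 ± 0.19 (edgeR adjusted p = 0.029). These were 2 of 10 genes called, where 0.62% of 19209 were called lower, and 6 of 10 did not overlap (Mx1, Bst2, Rsad2, Slfn8, Slfn2 and Trim30d), where 3.09% did. Neither gene was called without Het animal 1, Het animal 21 or anti-gp120 animal 1, and 1 was without Het animal 20 or anti-gp120 animals 7 or 8. Over all genes those fits called 67 to 138 in either direction. In isolates none was called by edgeR or DESeq2, where edgeR called 1.94% of 17140 genes in either direction. At an unadjusted p under 0.05 there was 1 of the 10, beside 1568 of the 17140. None of the 10 stood apart in isolates, where 2.14% of all genes were entirely lower in Het. Genotype, antibody and experiment cannot be told apart in this contrast, and it uses the same anti-gp120 libraries as the antibody comparison. Homeostatic microglia markers moved with it in forebrain: 8 of 9 were called lower in Het (median log2 difference -0.81), with sums of 226 to 260 CPM against 362 to 442. Of 5 choroid plexus markers 2 were called higher in Het forebrain, at sums of 145 to 188 CPM against 7.71 to 59.0. Their part in the Slfn2 and Slfn8 differences was not tested.

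In some arms the same animal was highest or lowest for most of the genes. Anti-gp120 animal 1 had the highest value of its arm for 9 of 10 genes in isolates and 7 of 10 in forebrain, and anti-IL34 animal 10 the lowest for 9 and 8. KO animal 6 was highest for 9 and 8 genes, and anti-IL34 animal 2 for 8 and 6. In the Het arm, animal 1 was lowest for 8 genes in isolates and 4 in forebrain, where it was also highest for 2, and animal 20 was highest for 7 and 3. To ask whether the hemispheres of an animal vary together, each library's deviation from its group mean (log2 CPM) was compared between the tissues over 15 animals, with 10 genes tested and permutation of animals within arms. Rsad2 had r = 0.809 (permutation p = 0.00224, adjusted 0.0112) and rho = 0.814 (permutation p = 0.00822, adjusted 0.0411). Trim30d had r = 0.850 (permutation p = 0.00176, adjusted 0.0112) and rho = 0.796 (permutation p = 0.00333, adjusted 0.0333). Without the 2 animals farthest from the forebrain median, r was 0.766 and 0.669 (unadjusted permutation p = 0.0126 and 0.0318), and neither passed after adjustment. Leaving them out also lowers the number of animals and their range, so this does not show that the calls rest on them. The other 8 genes had r from 0.349 (Slfn2) to 0.606 (Mx1) and did not pass. The median r of the 10 was 0.572, against 0.0598 over 17778 genes.

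**Figure D5:**
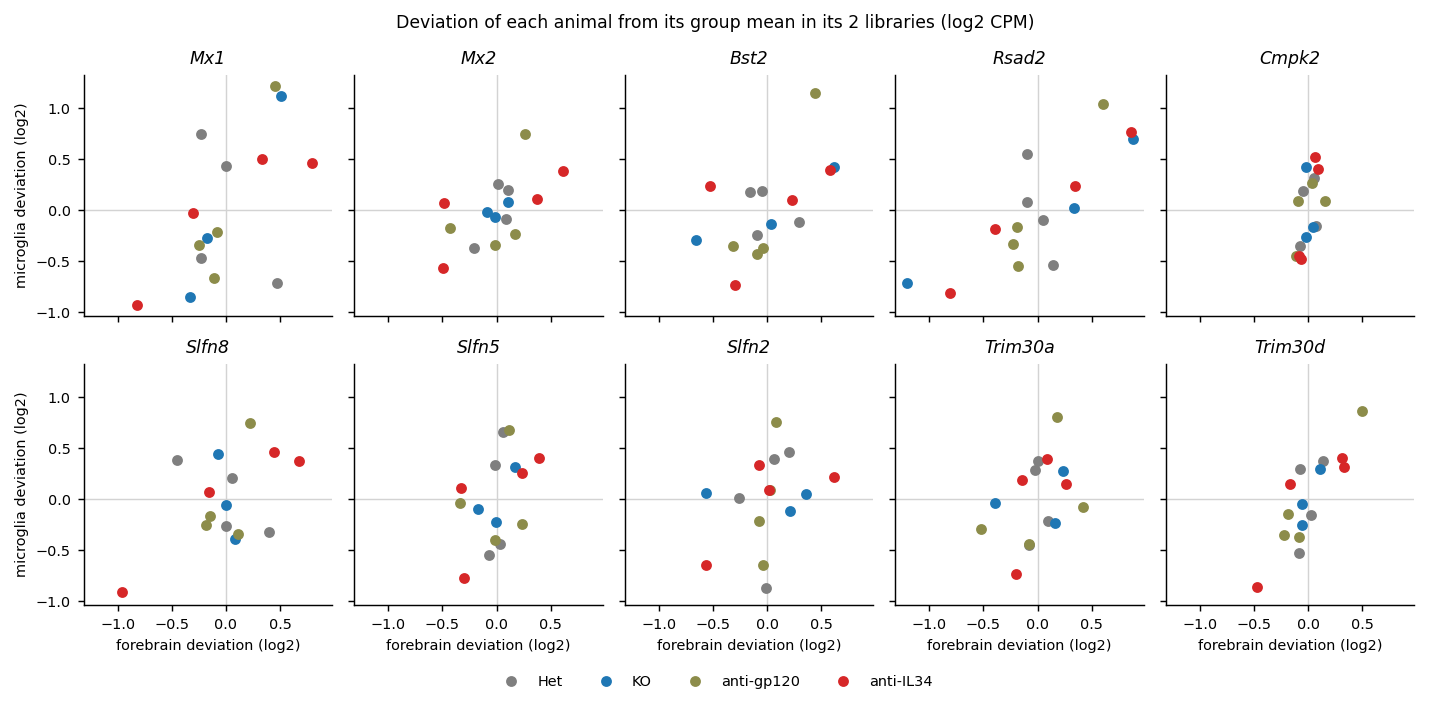
Deviation of each of the 15 animals from its group mean in forebrain (x axis, log2 CPM) and in isolated microglia (y axis, log2 CPM), 1 panel per gene, coloured by arm. Rsad2 and Trim30d, with r of 0.809 and 0.850, follow a rising line, while Cmpk2 spreads almost only in isolates.

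Upstream of these genes, interferons were near the limit of detection. Of 20 interferon genes, none was tested in forebrain after the filter on low counts, and their summed level there was at most 0.131 CPM in any library. In isolates the sum was 0.362 to 0.653 CPM with anti-gp120 and 1.15 to 1.85 with anti-IL34. Ifnb1, which encodes interferon-β, was the 1 interferon tested in that comparison, at 0.424 ± 0.063 CPM with anti-gp120 and 1.40 ± 0.339 with anti-IL34 (SD, n = 4 each), a log2 difference of 1.596 ± 0.26. It was called higher in edgeR, though in only 1 of 8 fits without 1 animal.

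Among receptors and their kinases, Ifngr1, a chain of the interferon-γ receptor, was 268 ± 40.2 CPM in Het isolates and 109 ± 6.68 in KO isolates and fell by 1.29 (SE 0.17; edgeR adjusted p = 0.0146), the only 1 of 9 receptor and kinase genes that passed in edgeR. It passed in 2 of 7 fits without 1 animal. Of these 9 genes, 6 were lower at an unadjusted p under 0.05 and DESeq2 called 5 lower. With anti-IL34, 8 of the 9 had a negative difference in isolates and edgeR called none, while DESeq2 called 2 lower. The 7 transcription factors tested had negative differences in KO isolates and none passed in edgeR, while 5 had an unadjusted p under 0.05 and DESeq2 called 4. Over all genes in KO isolates 5932 of 18185 had an unadjusted p under 0.05, and DESeq2 called 2274 lower and 1436 higher, so such counts are common there. With anti-IL34 in forebrain, Irf7 (1.28 ± 0.68 to 6.44 ± 2.11 CPM) and Irf9 (10.5 ± 1.20 to 19.4 ± 4.31) were among the factors called higher. Irf9 passed in 2 of 8 fits without 1 animal and Irf7 in 7. In isolates none of the 7 was called with anti-IL34, 3 had a higher and 2 a lower value at an unadjusted p under 0.05, and DESeq2 called 2 higher. Over all genes in these isolates 4559 of 17570 had an unadjusted p under 0.05, and DESeq2 called 480 higher and 1387 lower. Irf8 is listed at 0 in every library, as are the neuron marker Tubb3 and Trex1, listed among the inhibitors of interferon signalling. Of other antiviral effector genes, Tgtp1 is at 0 in every forebrain library and Igtp in every Het, KO and anti-gp120 isolate. Microglia are known to express Irf8 and neurons Tubb3. None of these zeros is read as absence of expression, and their origin is not known.

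Other effectors of the same class had 29 listed genes. This list and the other pathway lists were chosen with the antibody result known, so their antibody values restate it and are no independent evidence. In forebrain 22 were tested with antibody, 21 differences were positive and 9 were called higher, where 0.192% of 17143 genes were. Among the 9 were Oasl2 (4.30 ± 1.88 to 38.0 ± 18.3 CPM), Oas2, Gbp3 and Isg15 (0.695 ± 0.239 to 3.78 ± 1.81). Of the other lists, Usp18, an inhibitor of interferon signalling, and Slfn9 were called higher there, and Slfn9 in only 1 of 8 fits without 1 animal. In isolates 24 of 26 effector differences were positive and none was called by edgeR. At an unadjusted p under 0.05, 16 had a higher value, beside 4559 of all 17570 genes in either direction. DESeq2 called 15 higher and 1 lower, beside 480 and 1387 of all genes. In KO isolates 21 of 26 effector differences were negative and 1 was called lower, where 5.22% of all genes were. DESeq2 called 4 lower, beside 2274 of all genes. The 1 call was Apobec3 (55.6 ± 8.15 to 33.0 ± 4.80 CPM, edgeR adjusted p = 0.0492), which passed in 2 of 7 fits without 1 animal. In KO forebrain none of 23 was called by edgeR or DESeq2. At an unadjusted p under 0.05, 4 were lower, beside 1441 of all 19343 genes in either direction.

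Genes outside the set that followed it most closely were named by Pearson's r of log2 CPM with the mean z-score of the 10 genes over the 15 libraries of a tissue, which share arms and scale. In forebrain they were Ifit1 (r = 0.985), Ifit3, Rnf213, Rtp4 and Irf9 (r = 0.974), and in isolates Rnf213 (r = 0.995), Ifi209, Phf11d, Phf11b and Rigi (r = 0.990). Of the members, Trim30a followed the mean least in forebrain (r = 0.653) and Cmpk2 least in isolates (r = 0.776). Of the nearest neighbours on the chromosome, Bace2 beside Mx1 differed by 0.02 ± 0.10 (log2) with antibody in forebrain, Rnf144a beside Rsad2 by -0.03 ± 0.06 and Mvb12a beside Bst2 by -0.07 ± 0.15, while Slfn9, between Slfn5 and Slfn8, differed by 1.14 ± 0.21. In isolates the antibody differences were 0.68 ± 0.21 for Bace2, 0.67 ± 0.26 for Rnf144a and 0.16 ± 0.18 for Mvb12a. In KO isolates Bace2 and Rnf144a differed from Het by 0.66 ± 0.25 and 0.85 ± 0.32 (edgeR adjusted p = 0.134 and 0.132).

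Cell markers moved with several of these comparisons, and their part in the results was not tested. Homeostatic microglia markers fell in KO animals in 8 of 9 genes in forebrain and 9 of 9 in isolates, with a summed level of 226 to 260 CPM in Het and 97.2 to 117 in KO forebrain. With anti-IL34 they were called lower in 8 and 6 of 9, at 162 to 200 CPM against 362 to 442 in forebrain, while the 10 effectors were higher. Neutrophil and monocyte markers (9 genes, all detected in isolates) summed to 39.7 to 56.7 CPM in Het isolates, 41.3 to 91.7 in KO, 48.7 to 325 with anti-gp120 and 168 to 470 with anti-IL34. Anti-gp120 animal 1 had the highest sum of its arm, 325 CPM against 48.7 to 205 in the other 3. Border macrophage markers (7 genes) summed to 545 to 1030 CPM with anti-gp120 and 391 to 556 with anti-IL34.

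Summed markers of astrocytes, oligodendrocytes and neurons had higher medians in KO and anti-IL34 isolates than in their controls, and edgeR called none of these genes in either comparison. DESeq2 called 3 astrocyte markers and 1 neuron marker higher in KO isolates, and 1 neuron marker higher with anti-IL34. Astrocyte markers (6 genes) summed to 1138 to 3456 CPM in Het and 4011 to 4456 in KO isolates, and to 1668 to 5334 with anti-gp120 and 3288 to 5752 with anti-IL34. Oligodendrocyte markers (6 genes) ran from 3095 to 10610 CPM in Het, 8220 to 18900 in KO, 4201 to 10390 with anti-gp120 and 6490 to 13730 with anti-IL34. Neuron markers (7 genes, of which Tubb3 is listed at 0) ran from 108 to 418, 366 to 619, 199 to 601 and 448 to 758 CPM in the same order. Choroid plexus markers (5 genes) were 1156 to 3859 CPM in the isolates of the genotype experiment, 4.32 to 9.27 with anti-gp120 and 6.86 to 2181 with anti-IL34. Of endothelial markers 7 of 7 were tested in the genotype and antibody comparisons of both tissues, and edgeR and DESeq2 called none; none had an unadjusted p under 0.05. Few dendritic (3 to 4 of 6) and lymphocyte markers (1 to 3 of 10) passed the filter on low counts, so these lists say little.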

How the data were processed

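RNA was measured in 30 libraries of 15 mice, made with the SMART-Seq v4 kit per the labels' protocols. The authors deposited a table of raw read counts per gene; the submitters' processing notes name STAR 2.7.5c, featureCounts 1.6.3, R 4.4.0 and GRCm38, without their roles. Its Length column equalled the GENCODE M21 gene span, introns included, for 51183 of 51498 matched genes, so intronic reads may be counted. The table has 6 columns of samples without labels, which were not used, and the deposited TPM table was not used.

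Groups came from the labels. Differences were fitted to the counts by edgeR 4.0.16 (R 4.3.3; quasi-likelihood F test, TMM scaling, default expression filter, sex as covariate, Benjamini-Hochberg over all genes tested, threshold 0.05); standard errors are the log2 fold change over the square root of F. DESeq2 1.42.0, RLE factors, no filter, no sex term, all 15 libraries of a tissue and leaving out each animal were alternatives. The fits were tested on simulated data. The smallest chi-square per degree of freedom between replicates was 5.48 over 42 pairs, so no library was taken as deposited more than once. The labels do not name litters or batches, so p-values measure the spread between these animals.

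The libraries of an animal are paired by the labels and the sample sheet; their deviations from the group means correlated over genes at a median of 0.154 (0.068 to 0.261, above 0.1 in 11 of 15 animals), and the animal served as block in an alternative tissue fit. Correlations used log2 CPM with a prior count of 0.5 and 100000 permutations.

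The 10 genes and the other lists were chosen with earlier results of these data known. The rule for named genes was all 10 members, at most 4 genes per list and comparison with the smallest p among those that passed, the 5 genes most like the members per tissue, and the nearest neighbours on the chromosome. Sequence shared with other genes was counted over 50-base windows of the M21 transcripts.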

Additional observations from a re-analysis of the deposited data

Results flagged for a closer look

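There were 60 sets of 4 animals (6 arms and tissues for each of the 10 genes). Of these, 8 held an animal far from the other 3 by Dixon's criterion at the 95% level, applied to CPM. Chance meets it in about 1 of 20 sets if values are normal, which CPM need not be. The criterion was not applied to log2 values. All 8 were anti-gp120 animal 1, at the high end. In isolated microglia it was at 33.3 CPM for Mx1 (next highest 12.3), 24.4 for Mx2 (12.9), 34.2 for Bst2 (12.1), 33.2 for Rsad2 (14.3), 91.4 for Slfn8 (48.7) and 135 for Trim30d (67.5). In its forebrain it was at 1.96 CPM for Rsad2 (next highest 1.14) and 5.58 for Trim30d (3.72). The sets share the animal and the genes vary together, so these are not 8 separate events. Its libraries were the deepest of the arm, at 75.2 and 50.5 M counts.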

How the results depend on the processing

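For the genotype comparison, the number of the 10 genes called was 1 in forebrain (3 with no filter on low counts, 0 with all 15 libraries in the fit, 0 to 1 leaving out an animal) and 3 in isolates (6 with DESeq2, 4 with no filter, 4 with no sex term, 2 with RLE factors, 2 with all 15 libraries, 0 to 6 leaving out an animal). With antibody it was 4 in forebrain (1 to 6) and 1 in isolates (6 with no filter, 6 with DESeq2, 5 with no sex term, 6 with all 15 libraries, 0 to 6 leaving out an animal). The deletion less antibody difference gave 0 in forebrain (6 with no filter, 4 with DESeq2, 1 with no sex term, 0 to 5 leaving out an animal) and 0 in isolates (7 with DESeq2, 0 to 2 leaving out an animal). Het less anti-gp120 gave 2 in forebrain (6 with no filter, 0 to 2 leaving out an animal) and 0 in isolates under each alternative. All 10 tissue calls held under each alternative, the animal as replicate block included (10 genes). The count of genes with a same-animal correlation went from 2 to 0 without the 2 farthest animals. The causes were not tested.

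Among tested comparisons, signs changed only on leaving out an animal, for genes that had not passed. In KO minus Het forebrain, Mx1 ranged from -0.35 to 0.41, Rsad2 from -0.77 to 0.30, Slfn5 from -0.041 to 0.084 and Slfn2 from -0.32 to 0.19; in isolates Slfn5 ranged from -0.50 to 0.032. In Het minus anti-gp120 forebrain, Mx2 ranged from -0.15 to 0.073 and Trim30a from -0.29 to 0.041. In Het minus anti-gp120 isolates, Mx1 ranged from -0.72 to 0.25, Mx2 from -0.091 to 0.38, Bst2 from -0.44 to 0.21, Trim30a from -0.47 to 0.048 and Trim30d from -0.52 to 0.011. In anti-IL34 minus anti-gp120 forebrain, described without a test, Trim30a ranged from -0.078 to 0.18. Depth limits the forebrain values near 1 CPM, where a library held as few as 6 counts. Over all genes tested, KO isolates had 976 calls (1993 with no filter, 3710 with DESeq2, 2189 with no sex term, 2734 with all 15 libraries, 0 to 5756 leaving out an animal), and anti-IL34 isolates 110 (819, 1867, 983, 988, and 0 to 6905). In forebrain the counts were 120 for KO (381 with no filter, 55 without KO animal 3) and 123 for anti-IL34 (349 with no filter, 25 without anti-IL34 animal 11). The median tissue difference of all genes was -0.0425, and 0.1613 with DESeq2, which was run with no filter on low counts as well (edgeR with no filter gave -0.0618).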
